A study of Rattus norvegicus with 6 samples.

Results

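The RT1 complex is the major histocompatibility complex of the rat, and the probe sets described here are those named for RT1 genes and for the genes that prepare peptides for RT1 molecules. The members were taken from the platform annotation by name: every probe set with exactly 1 gene symbol, where that symbol starts with RT1- or is one of Tap1, Tap2, Tapbp, B2m, Cd74, Ciita, Nlrc5, Erap1, Psmb8, Psmb9 and Psmb10. This gave 47 probe sets for 29 genes out of 31099 probe sets on the array. They comprised 3 probe sets for 2 class Ia genes, 17 for 10 class Ib genes, 11 for 6 class II genes and 16 for 11 processing genes. The group was selected on measured values, the differences between probiotic and high-fat livers on these arrays, where RT1-A had stood out. Differences between the groups are therefore given as a description, without a test of any member.

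RNA of 6 rat liver samples, picked at random from the groups, was measured on 1-colour Affymetrix arrays, 3 from the high-fat and 3 from the probiotic group. All rats ate a fat-rich diet for 30 d to raise cholesterol and stayed on it for another 30 d. In that second period the high-fat control group received 1 ml of normal saline by gavage each day, and the probiotic group received the same volume with Lactobacillus casei Zhang, a lactic acid bacterium. Strain, sex and age do not appear in the labels used, which also do not state that each sample came from a different rat, so the spread described is that between samples. Levels are log2(intensity + 16) after quantile normalization of the arrays, and a difference is always the probiotic mean minus the high-fat mean on this scale.

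Class I molecules sit on nearly all nucleated cells, pair with beta-2-microglobulin (B2m) and show peptides cut by the proteasome to CD8 T cells. Class Ia molecules are the classical, highly polymorphic ones, whereas class Ib molecules are less polymorphic relatives, several of which are read by natural killer cells. Class II molecules are pairs of an alpha and a beta chain on macrophages, dendritic cells and B cells, which in liver include the Kupffer cells, and they show peptides from ingested proteins to CD4 T cells. The transactivator Ciita drives class II genes through a promoter module with an X box and a Y box, and Nlrc5 acts on a related module in class I genes.

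The promoters of 7 members are shown, with matches to motifs named for the module that Ciita and Nlrc5 act through. In Tap1 the match shown is instead to an interferon element. These promoters were not chosen for the size of their differences. The sequences are RefSeq's, build GRCr8, 300 bases each from 250 before the annotated start to 50 after it, 5′ to 3′ on the strand of the gene. Capitals in the first 6 mark matches to the Y box CTGATTGG, the X box core GNNACNGAT and, in RT1-A3, also enhancer A, GGGATTCCC. In Tap1 they mark the interferon element GAAANNGAA, found there on the opposite strand. Each motif was searched on both strands, and no 2 marked motifs overlap.
RT1-Ba, chr20:4576807-4577106, plus strand: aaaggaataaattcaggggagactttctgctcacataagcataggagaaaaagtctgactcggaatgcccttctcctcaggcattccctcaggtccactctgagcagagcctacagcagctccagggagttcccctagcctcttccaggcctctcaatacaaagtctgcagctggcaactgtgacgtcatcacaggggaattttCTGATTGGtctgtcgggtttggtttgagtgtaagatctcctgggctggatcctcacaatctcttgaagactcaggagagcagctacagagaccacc
RT1-Bb, chr20:4604069-4604368, minus strand: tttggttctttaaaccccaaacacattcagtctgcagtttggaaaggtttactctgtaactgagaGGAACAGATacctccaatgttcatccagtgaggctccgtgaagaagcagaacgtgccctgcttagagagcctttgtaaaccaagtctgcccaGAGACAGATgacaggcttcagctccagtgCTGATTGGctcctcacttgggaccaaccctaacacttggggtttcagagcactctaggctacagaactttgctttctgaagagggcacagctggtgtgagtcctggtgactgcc
RT1-Da, chr20:4515165-4515464, plus strand: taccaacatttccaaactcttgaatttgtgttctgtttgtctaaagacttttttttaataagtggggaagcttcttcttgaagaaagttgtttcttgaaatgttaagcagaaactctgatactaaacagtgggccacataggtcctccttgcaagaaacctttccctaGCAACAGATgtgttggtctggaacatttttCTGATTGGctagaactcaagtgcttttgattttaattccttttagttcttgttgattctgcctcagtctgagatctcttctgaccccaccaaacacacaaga
RT1-Db1, chr20:4560113-4560412, minus strand: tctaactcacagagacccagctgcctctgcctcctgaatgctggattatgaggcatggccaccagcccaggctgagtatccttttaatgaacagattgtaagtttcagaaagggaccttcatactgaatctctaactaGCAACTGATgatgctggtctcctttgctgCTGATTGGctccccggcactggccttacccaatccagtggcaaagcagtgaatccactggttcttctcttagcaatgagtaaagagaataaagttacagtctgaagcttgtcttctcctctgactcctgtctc
RT1-DMa, chr20:4712286-4712585, minus strand: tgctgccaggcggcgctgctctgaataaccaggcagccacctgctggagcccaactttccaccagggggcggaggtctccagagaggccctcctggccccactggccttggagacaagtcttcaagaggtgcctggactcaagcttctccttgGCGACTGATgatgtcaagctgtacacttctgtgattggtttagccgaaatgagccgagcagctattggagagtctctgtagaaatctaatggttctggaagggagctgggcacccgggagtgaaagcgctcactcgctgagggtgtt
RT1-A3, chr20:4849201-4849500, plus strand: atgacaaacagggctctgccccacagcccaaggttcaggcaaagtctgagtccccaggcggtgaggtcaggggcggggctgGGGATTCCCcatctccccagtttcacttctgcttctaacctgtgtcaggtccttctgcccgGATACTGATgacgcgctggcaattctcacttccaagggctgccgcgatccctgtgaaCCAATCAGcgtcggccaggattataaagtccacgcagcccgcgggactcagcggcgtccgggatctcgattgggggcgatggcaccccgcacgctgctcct
Tap1, chr20:4668494-4668793, minus strand: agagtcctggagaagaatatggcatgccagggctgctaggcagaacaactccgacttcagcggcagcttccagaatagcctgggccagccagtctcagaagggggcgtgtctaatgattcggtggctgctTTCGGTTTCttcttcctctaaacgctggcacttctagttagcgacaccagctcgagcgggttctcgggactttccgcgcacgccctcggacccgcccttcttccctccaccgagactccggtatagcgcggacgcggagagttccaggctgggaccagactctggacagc

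A promoter was found for 24 of the 29 genes. Letters of the Y box, on either strand, stood in 10 of these 24, against 3.5% of 33469 rat promoters of the same length. Among the 10 were 4 of 5 class II, the 1 class Ia and 4 of 10 class Ib promoters. The X box core stood in 10 of 24, with 4 of 5 class II and 5 of 10 class Ib promoters, against 7.83% of all. In RT1-Bb, RT1-Da and RT1-Db1 the first base of the nearest X box core lay 29, 30 and 29 bases before that of the Y box. In RT1-A3 it lay 57 bases before a match to the Y box letters on the opposite strand. With that strand and spacing, the RT1-A3 match is not taken as the Y box of the module. RT1-Bb held a second match to the X box core farther upstream. The RT1-Ba window held the Y box without the X box core as spelled here. The RT1-DMa window held the X box core without the Y box as spelled here. It does hold gtgattgg, which departs from that spelling in the first letter alone. Enhancer A, a class I element bound by NF-kappaB family factors, occurred in RT1-A3, RT1-CE16 and RT1-CE10 and in 0.365% of all promoters. The interferon element occurred in 6 of 8 processing gene promoters, those of B2m, Psmb8, Psmb10, Tap1, Tap2 and Tapbp, in 2 of 10 class Ib promoters and in 9.71% of all. A match to these letters is a description of the sequence and says nothing of binding in these livers.

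In each of the 4 kinds of gene more probe sets were lower than higher in the probiotic group, and wide and narrow differences stood side by side. The difference was below 0 for 39 of 47 members, against 50% of all 31042 probe sets other than controls. By class this held for 2 of 3 class Ia, 16 of 17 class Ib, 8 of 11 class II and 13 of 16 processing probe sets. The 2 in class Ia were RT1-A, which had stood out when the group was selected, and a dim RT1-A3 probe set. The median difference was -0.91 in class Ia, -0.58 in class Ib, -0.41 in class II and -0.33 among the processing genes, and 0.00 over all probe sets (8.759e-05). Every value of the probiotic group lay below every value of the high-fat group for 11 members, a pattern seen in 6.03% of all probe sets, and above it for 1 member, a pattern seen in 5.55%. At least 1 log2 unit separated the group means in the lower direction for 7 members, against 3.67% of all probe sets. Since the contrast had been seen when the group was put forward, nothing is read from these shares.

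**Figure D1:**
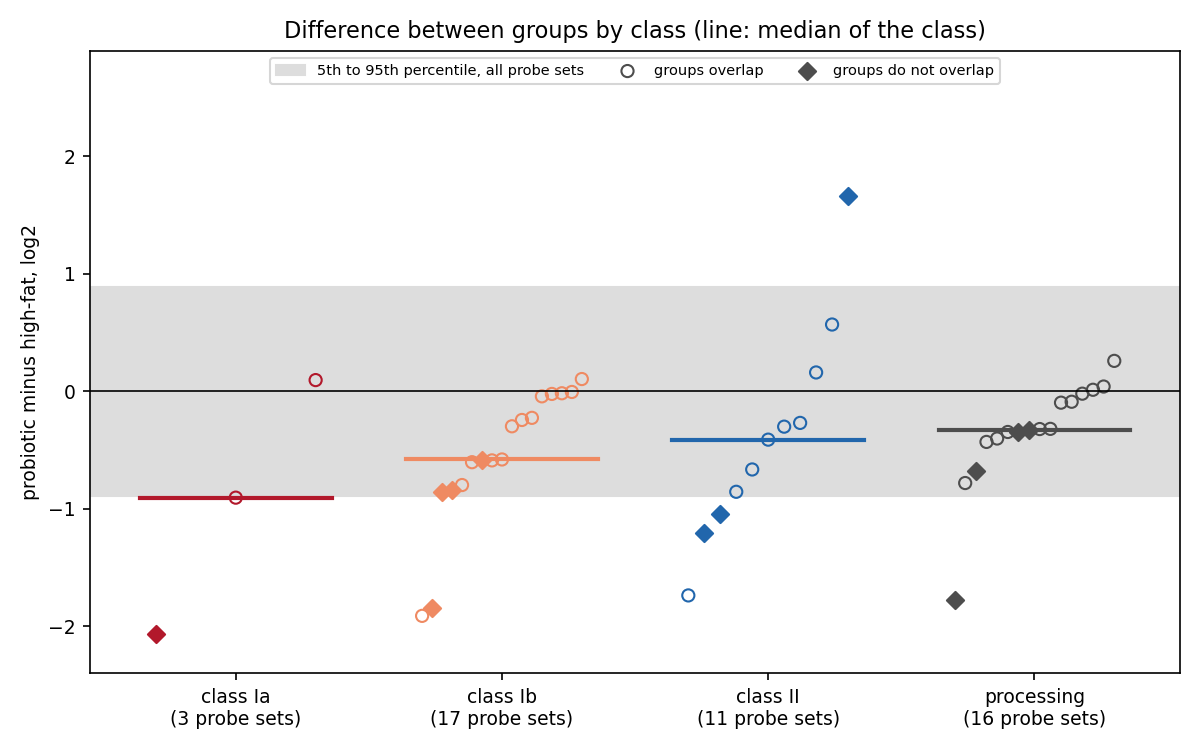
Difference between group means (probiotic minus high-fat, log2) for each of the 47 probe sets, by class, with filled diamonds for probe sets whose groups do not overlap, open circles for the others, a line at the class median and a grey band from the 5th to the 95th percentile of all probe sets (-0.89 to 0.89). RT1-A at -2.07 and 1 RT1-Ba probe set at 1.67 lie at the extremes, and most processing genes lie inside the band.

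Across the whole table, limma called 4 of 18625 tested probe sets (0.0215%) at an adjusted p under 0.05. Since the members were selected on this contrast, no call and no p is given for any of them.

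RNA quality moved with the groups and stands beside every difference given here. For Actb, the 3′ control probe set exceeded the 5′ one by a log2 gap that widens as transcripts shorten. It was 2.08, 3.07 and 2.39 in probiotic samples 1, 2 and 3 and 1.95, 1.48 and 1.97 in high-fat samples 1, 2 and 3 (exact two-sided permutation p = 0.1, the smallest that 3 against 3 allow). Probiotic sample 2, with the widest gap, was the lowest of the 6 samples for 21 of 47 members, against 20.11% of all probe sets. All 3 probiotic gaps lay above all 3 high-fat gaps, so a fit with the gap cannot tell RNA quality and group apart. It leans on slopes within the groups, where sample 2 of each group lay farthest out. Values from this fit show how far a difference moves and are not corrected differences. With this gap in the fit 26 of 47 members had a difference below 0. Of the 29 probe sets followed through every setting, 14 then lay farther from 0 with the same sign, 10 lay nearer 0 and 5 changed sign. The class medians were then 0.15 for class Ia, -0.56 for class Ib, -0.030 for class II and -0.13 for the processing genes. High-fat sample 2 stood farthest out on the leading component over all probe sets, which held 29.2% of the variance. Without both sample 2 arrays 31 of 47 members were below 0, and the class medians were -0.16, -0.79, -0.14 and -0.16 in the same order.

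In class Ia the probe sets did not move as one. RT1-A, a classical class I heavy chain, had levels of 7.53, 6.81 and 7.64 in probiotic samples 1, 2 and 3 and of 9.38, 8.96 and 9.83 in high-fat samples 1, 2 and 3. All 3 probiotic values lay below all 3 high-fat values, with over 1 log2 unit between the nearest of them. The means were 7.32 ± 0.451 and 9.39 ± 0.432 (SD, n = 3 each), a difference of -2.07 (SE 0.323), or 4.19-fold lower. It lay between -2.34 and -1.80 with any 1 sample left out and was -1.85 with the gap of Actb in the fit (below, the covariate).

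RT1-A3, another classical heavy chain gene, had its brighter probe set at 10.65, 9.85 and 10.07 in probiotic samples and at 10.26, 10.35 and 9.67 in high-fat samples. These ranges overlapped nearly in full, and the difference was 0.096 (SE 0.273). Its sign turned without probiotic sample 1 (-0.14). The second RT1-A3 probe set was near the floor of the scale, which is 4 for a signal of 0, with 5.67, 4.60 and 4.64 in the probiotic and 4.25, 6.98 and 6.40 in the high-fat samples. It failed the signal filter, and its difference of -0.91 was -1.72 without high-fat sample 1 and 0.15 with the covariate. With 3 probe sets in the class, the class Ia median is the value of this dim probe set.

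**Figure D2:**
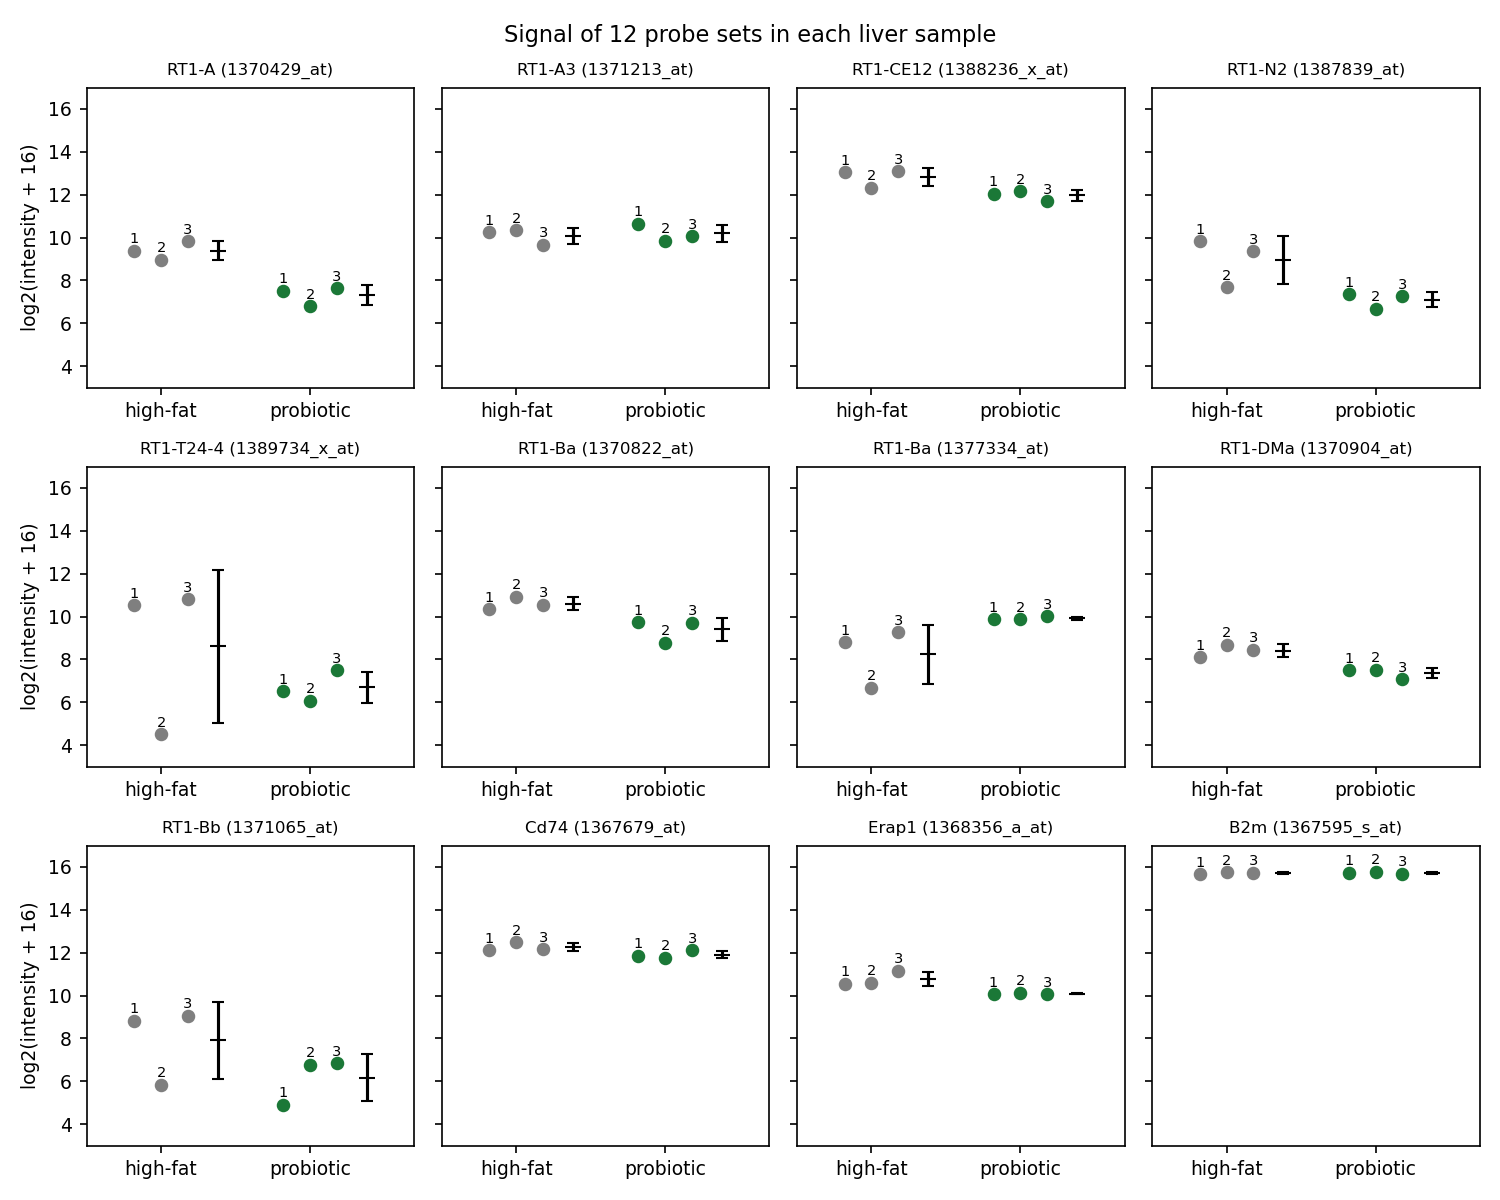
Level, log2(intensity + 16), of 12 probe sets in each sample, with high-fat samples in grey, probiotic samples in green, sample numbers above the points and the mean ± SD beside them. RT1-A, RT1-N2, RT1-DMa and the 2 RT1-Ba probe sets separate the groups, RT1-T24-4 and RT1-Bb are split within the high-fat group, and B2m lies between 15.67 and 15.77 in every sample.

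Class Ib held 16 of 17 probe sets with differences below 0 (50% of all probe sets), over a range of -1.91 to 0.10. In 4 all probiotic values were lower (6.03% of all probe sets). RT1-N2, a class Ib heavy chain gene of the RT1-N region, had levels of 7.36, 6.69 and 7.26 in the probiotic and 9.83, 7.67 and 9.35 in the high-fat samples. The groups did not overlap, but high-fat sample 2 lay close to the probiotic samples and far from the other 2 of its own group. The difference was -1.85 (SE 0.507), 3.59-fold lower. Leaving out high-fat sample 2 gave -2.55, leaving out high-fat sample 1 gave -1.41, and the covariate gave -2.12.

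RT1-CE12, a heavy chain gene of the class I region RT1-C/E, was the brightest class Ib probe set, at 12.04, 12.16 and 11.69 in the probiotic and 13.05, 12.33 and 13.10 in the high-fat samples. Again high-fat sample 2 was the lowest of its group, just above the probiotic values. The means were 11.97 ± 0.244 and 12.83 ± 0.430 (SD, n = 3 each), a difference of -0.86 (SE 0.232), or 1.82-fold lower, and -1.24 with the covariate. One of 5 RT1-CE5 probe sets, 1371210_s_at, read 5.90, 6.23 and 5.98 in the probiotic and 6.92, 6.52 and 7.19 in the high-fat samples, a difference of -0.84 (SE 0.431), which was -1.21 with the covariate. The other 4 probe sets of RT1-CE5 had differences between -0.80 and -0.0055 with groups that overlapped. RT1-CE10, named because it was the fourth class Ib probe set without overlap, had a difference of -0.59 (SE 0.262).

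RT1-T24-4 had the widest spread of any member. Its levels were 6.53, 6.09 and 7.50 in the probiotic samples and 10.54, 4.51 and 10.80 in the high-fat samples. High-fat samples 1 and 3 lay over 3 log2 units above every probiotic sample, while high-fat sample 2 was the lowest of all 6 and near the floor. The difference was -1.91 (SE 1.40) with all samples. Leaving out high-fat sample 2 gave -4.03, leaving out sample 1 of that group -0.96 and leaving out its sample 3 -0.77, so its size turned on which high-fat samples entered. With the covariate it was -3.66. RT1-N3, another class Ib gene, had 4.87, 7.31 and 6.41 in the probiotic and 7.43, 4.83 and 7.07 in the high-fat samples. Low values near the floor occurred in 1 sample of each group, and the difference was -0.24 (SE 0.829). Leaving out probiotic sample 1 turned it to 0.42, and leaving out sample 1 or 3 of the high-fat group turned it to 0.25 or 0.083. Leaving out high-fat sample 2 gave -1.05, leaving out probiotic sample 2 gave -0.80, dropping both gave -1.62, and the covariate gave -2.33.

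The 4 probe sets of RT1-S3, the rat counterpart of a class Ib molecule that presents leader peptides of other class I chains, were all bright, at means of 11.35 to 11.80. Their differences of -0.60, -0.23, -0.022 and -0.017 came with overlapping groups. RT1-CE16 had 0.10, RT1-T24-3 -0.043 and RT1-M3-1, which presents formylated peptides, -0.58, each with overlapping groups. A further 6 probe sets carried several symbols, at least 1 of them an RT1 gene, and were not members. Their differences ran from -5.29 to 0.28. The one at -5.29, 1370428_x_at, had levels of 6.80, 4.40 and 6.05 in the probiotic and 12.86, 7.31 and 12.96 in the high-fat samples. There, too, high-fat samples 1 and 3 were high and high-fat sample 2 lay near the probiotic samples.

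That arrangement of samples was counted after it had been noticed. High-fat samples 1 and 3 were the 2 highest of the 6 for 7 of 20 class I probe sets, namely RT1-A, RT1-CE10, RT1-CE12, 2 of RT1-CE5, RT1-N2 and RT1-T24-4. All of these but RT1-A and RT1-N2 are of designs that can bind more than 1 transcript. They may therefore share signal and need not stand for separate genes. The pattern held for 1 of 11 class II and 2 of 16 processing probe sets, Psmb9 and Psmb10, and for 5.473% of all probe sets. In class II a different sample led: high-fat sample 2 was the highest for 8 of 11 probe sets, against 23.15% of all. In class I it led for 4 of 20.

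The brightest probe set of each of the 6 class II genes was lower in the probiotic group, from -1.21 for RT1-Ba, whose other probe sets went the other way, to -0.27 for RT1-Da. RT1-Ba encodes the alpha chain of the RT1.B molecule, and its brightest probe set, 1370822_at, read 9.73, 8.78 and 9.70 in the probiotic and 10.35, 10.92 and 10.56 in the high-fat samples. The groups did not overlap, at means of 9.40 ± 0.539 and 10.61 ± 0.288 (SD, n = 3 each). The difference was -1.21 (SE 0.292), 2.31-fold lower. Leaving out probiotic sample 2 gave -0.89, and the covariate gave -0.49.

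A second RT1-Ba probe set, 1377334_at, showed the reverse. It read 9.87, 9.87 and 10.01 in the probiotic and 8.81, 6.67 and 9.26 in the high-fat samples, again without overlap but with the probiotic samples on top. The difference was 1.67 (SE 0.560), 3.17-fold higher. It was 0.89 with high-fat sample 2 left out and 0.86 with the covariate. Another, 1392334_at, read 6.31, 8.04 and 7.02 in the probiotic and 5.91, 8.13 and 5.63 in the high-fat samples. Here both sample 2 arrays were the highest of their groups, and the difference of 0.57 (SE 0.703) was smaller than its SE and ran from 0.11 to 1.35 with 1 sample left out. The fourth RT1-Ba probe set had 0.16 (SE 0.542). The 4 probe sets named for RT1-Ba thus spanned 2.87 log2 units, and no direction can be given for the gene.

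RT1-Bb, the beta chain that pairs with it, had 2 probe sets. The dimmer one, 1371065_at, read 4.90, 6.76 and 6.84 in the probiotic and 8.82, 5.84 and 9.06 in the high-fat samples. High-fat samples 1 and 3 were high and high-fat sample 2 was low, and the difference was -1.74 (SE 0.857). Leaving out high-fat sample 2 gave -2.83, leaving out sample 3 of that group gave -1.13, leaving out probiotic sample 1 gave -1.10, and the covariate gave -3.67. The brighter one had -0.67 (SE 0.370) and its highest value, 10.53, in that same high-fat sample 2, so the 2 probe sets placed that sample at opposite ends of its group.

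RT1-DMa and RT1-DMb encode the chains of the DM molecule, which exchanges peptides on class II molecules inside the cell. RT1-DMa read 7.49, 7.53 and 7.08 in the probiotic and 8.10, 8.69 and 8.45 in the high-fat samples. The groups did not overlap, and the difference was -1.04 (SE 0.284), 2.06-fold lower, between -1.21 and -0.89 with any 1 sample left out and -0.98 with the covariate. RT1-DMb had -0.86 (SE 0.341) with groups that overlapped. The chains of the RT1.D molecule differed least, at -0.27 (SE 0.201) for the alpha chain RT1-Da and -0.41 and -0.30 for the 2 probe sets of the beta chain RT1-Db1.

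Among the processing genes, the proteasome and transporter genes had groups that overlapped, with brightest probe sets between -0.43 and -0.097. Psmb8, Psmb9 and Psmb10 are the catalytic subunits that turn the standard proteasome into the immunoproteasome. Psmb8 read 11.70, 10.69 and 11.52 in the probiotic and 11.95, 11.75 and 11.51 in the high-fat samples, a difference of -0.43 (SE 0.267) that was -0.13 without probiotic sample 2 and 0.16 with the covariate. Psmb9 read 10.75, 10.29 and 10.77 against 11.41, 10.33 and 11.02, a difference of -0.32 (SE 0.283). Psmb10 read 9.87, 9.97 and 10.18 against 10.90, 9.85 and 10.47, a difference of -0.40 (SE 0.272). For Psmb9 and Psmb10 high-fat sample 2 lay within the range of the probiotic samples or below it, and leaving it out gave -0.62 and -0.68. Leaving out high-fat sample 1 gave -0.077 and -0.16 instead, and for Psmb9 leaving out probiotic sample 2 gave -0.16. With the covariate they were -0.35 and -0.70. Of their counterparts in the standard proteasome, Psmb5 had -0.19 (SE 0.151) and Psmb7 -0.12 (SE 0.165).

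Tap1 and Tap2 form the transporter that carries peptides into the endoplasmic reticulum. The brighter Tap1 probe set read 9.27, 8.71 and 9.01 in the probiotic and 9.18, 9.68 and 9.09 in the high-fat samples, a difference of -0.32 (SE 0.254), and the dim one, below the signal filter, had -0.78. Tap2 read 8.10, 7.48 and 8.41 against 8.53, 8.53 and 7.97, a difference of -0.35 (SE 0.315). With 1 sample left out the brighter Tap1 ran from -0.46 to -0.14, the latter without high-fat sample 2, and was -0.18 without probiotic sample 2. Tap2 ran from -0.55 when probiotic sample 3 was left out to -0.088 when probiotic sample 2 was. With the covariate Tap1 and Tap2 turned to 0.17 and 0.17. Tapbp, the tapasin that bridges transporter and class I chain, read 9.06, 8.97 and 8.55 against 8.93, 8.95 and 8.99, a difference of -0.097 (SE 0.229), which was 0.059 without probiotic sample 3.

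Erap1, the aminopeptidase that trims peptides to length, had 2 of 3 probe sets with all probiotic values lower (6.03% of all probe sets). Its probe set 1368356_a_at read 10.07, 10.14 and 10.07 in the probiotic and 10.56, 10.61 and 11.15 in the high-fat samples, a difference of -0.68 (SE 0.211), or 1.60-fold lower, and -0.81 with the covariate. Its brightest probe set read 10.86, 10.61 and 11.02 against 11.24, 11.17 and 11.07, a difference of -0.33 (SE 0.181), which was -0.22 without probiotic sample 2 and -0.15 with the covariate. In the second the nearest values, 11.02 and 11.07, almost touched. The dimmest Erap1 probe set, below the signal filter, had -0.089.

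B2m, the shared light chain of class I molecules, had group means close together in both of its probe sets. Its brighter probe set read 15.74, 15.77 and 15.69 in the probiotic and 15.67, 15.75 and 15.74 in the high-fat samples, a difference of 0.013 (SE 0.101). It is among the brightest probe sets of the arrays, where quantile normalization leaves little room for spread. Its sign depended on the scaling, at -0.059 with median centring and -0.11 without normalization between arrays. The second B2m probe set read 13.73, 12.78 and 13.18 against 13.31, 12.99 and 13.45, with a within-group SD of 0.377. Its difference of -0.020 (SE 0.238) was 0.025 with median centring and 0.34 with the covariate, and it ran from -0.27 to 0.21 with 1 sample left out.

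Of the transactivators, Nlrc5 read 7.48, 7.38 and 7.33 in the probiotic and 7.18, 7.62 and 7.28 in the high-fat samples, a difference of 0.041 (SE 0.297). For Ciita the 2 probe sets disagreed. The brighter read 7.52, 7.18 and 6.84 against 6.76, 6.64 and 7.36, a difference of 0.26 (SE 0.372). The dimmer, below the signal filter, read 5.18, 5.77 and 4.47 against 6.19, 7.64 and 6.93, without overlap, and its difference of -1.78 was -2.54 with a pseudocount of 1 and -1.02 with 64. Cd74, the invariant chain that guards the class II groove and a target of Ciita, read 11.85, 11.77 and 12.11 against 12.12, 12.48 and 12.17. The groups did not overlap, but the nearest values differed by little, and the difference was -0.35 (SE 0.174), or 1.27-fold lower, and -0.15 with the covariate.

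**Figure D3:**
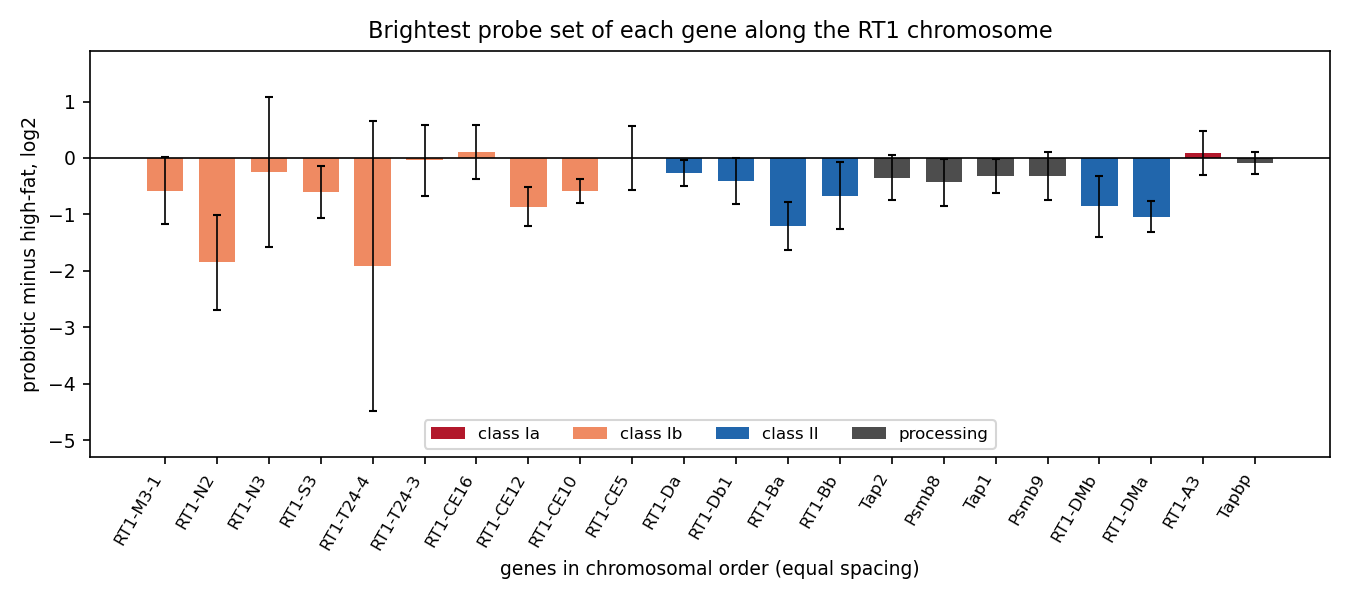
Difference (probiotic minus high-fat, log2) of the brightest probe set of each of 22 member genes on chromosome 20, in chromosomal order with equal spacing; bars are coloured by class and error bars are the pooled within-group SD. Class II genes and the Tap and Psmb genes among them lie below 0, from -0.27 to -1.21 (for RT1-Ba by its brightest probe set alone), while RT1-A3 and RT1-CE16 lie above 0.

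RefSeq places 22 of the 29 genes on chromosome 20, which holds RT1, so that they lie together follows in part from their choice by name. The differences set along their order are those on which the group was selected, and nothing is read from them. The class II genes RT1-Da, RT1-Db1, RT1-Ba and RT1-Bb come first in their stretch, followed by Tap2, Psmb8, Tap1 and Psmb9 and then by RT1-DMb and RT1-DMa. By brightest probe sets the 10 genes of this stretch had differences below 0, against 50% of all probe sets. RT1-Ba is included, whose other 3 probe sets were above 0, and without it the count is 9 of 9. The Tap and Psmb genes had values of -0.43 to -0.32 and their class II neighbours -1.21 to -0.27. RT1-A3 and Tapbp, at the end of the order, had 0.096 and -0.097. In the class I genes at the other end, RT1-N2 (-1.85) lies beside RT1-N3 (-0.24), and RT1-T24-4 (-1.91) beside RT1-T24-3 (-0.043). RT1-A has no entry in the RefSeq table used and was not placed.

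Spread between samples of 1 group is a measure that the contrast does not enter. The median pooled within-group SD was 0.44 in class Ia, 0.55 in class Ib, 0.54 in class II and 0.37 among the processing genes, against 0.48 over all probe sets. Spread varied with signal, with medians of 0.23 to 0.81 over 10 equal bins of mean signal, so each member was set beside the median of all probe sets in its own bin. Above that median lay 3 of 3 class Ia, 14 of 17 class Ib and 9 of 11 class II probe sets, and 7 of 16 processing probe sets. The median ratio to it was 1.41, 1.95, 1.65 and 0.92 in that order. Median centring lowered the ratio to 1.45 in class Ib and 1.16 in class II. The ratios of classes Ib and II rested largely on the sample 2 arrays. Without both arrays, the ratios were 1.68 in class Ia, 1.09 in class Ib, 0.99 in class II and 1.11 among the processing genes. Above the median of their bin then lay 2 of 3 class Ia, 12 of 17 class Ib, 5 of 11 class II and 10 of 16 processing probe sets.

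**Figure D4:**
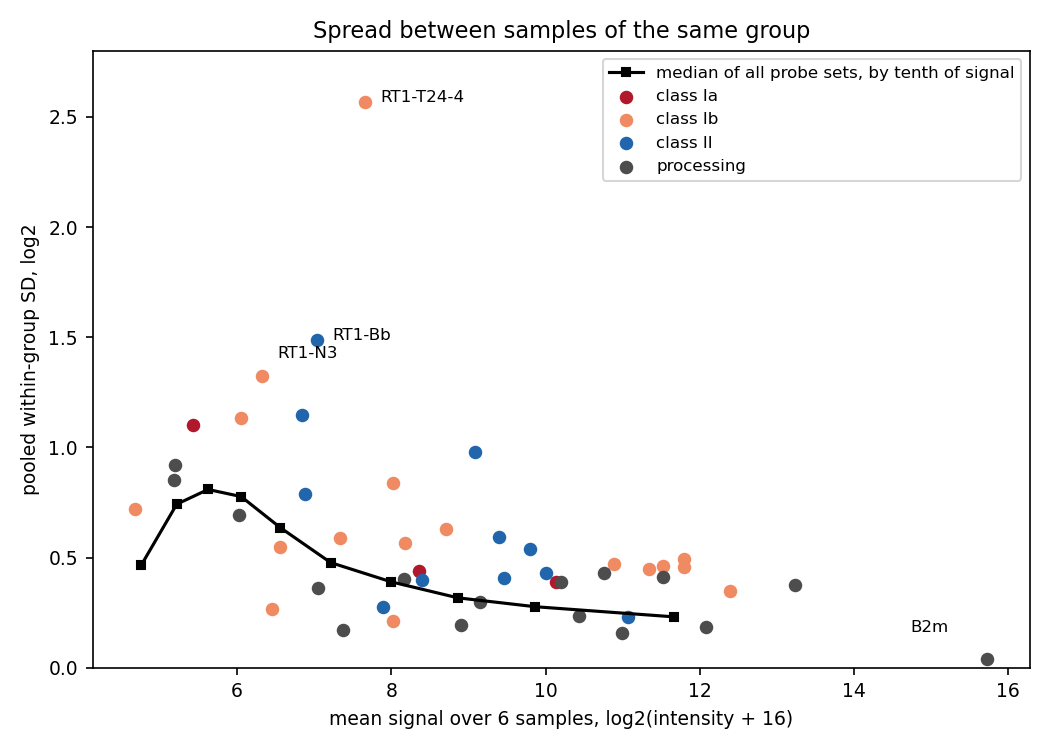
Pooled within-group SD (log2) of each of the 47 probe sets against its mean level, log2(intensity + 16), coloured by class, with the median of all probe sets in each of 10 equal bins of signal as a black line. RT1-T24-4 at 2.57 stands farthest above the line, and B2m at 0.041 is the lowest.

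Probe sets of the RT1 genes are often of kinds that can bind more than 1 transcript. The suffixes _x_at and _s_at, which mark such designs, occurred on 10 of 31 RT1 probe sets (32.26%), 1 of 16 processing probe sets and 1.614% of all probe sets. RT1 copies are much alike and vary between rats, so signal named for 1 of them may come from another. Several probe sets existed for 10 genes, and their differences had both signs for 4 of these, B2m, Ciita, RT1-A3 and RT1-Ba.

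Other genes of the 2 pathways had medians of -0.10 and -0.16, and limma called none of them at an adjusted p under 0.05. Named here are those whose groups did not overlap and the lowest and highest of each list, with their neighbours in function. Over all probe sets, 6.03% had no overlap with the probiotic group lower and 5.55% with it higher. In peptide loading and control of class I, 11 of 14 genes were found, with 0 called in either direction, 8 lower and 3 higher. At an unadjusted p under 0.05 (6.85% of all tested probe sets) the count was 0 as well. The chaperone Canx had -0.18 (SE 0.141) and the proteasome activator Psme1 -0.38 (SE 0.178), both without overlap. Jak2, a kinase of the interferon-gamma receptor, had -0.47 (SE 0.374). The interferon regulatory factors Irf1 and Irf2 had -0.10 (SE 0.245) and 0.42 (SE 0.259). In the class II pathway 13 of 13 were found, with 0 called at the adjusted and 2 at the unadjusted threshold, 10 lower and 3 higher. Cathepsin D, Ctsd, had -0.49 (SE 0.184) without overlap. Of the factor that binds the X box, Rfx5 had -0.36 (SE 0.248) without overlap, Rfxap 0.24 (SE 0.248) and Rfxank, below the signal filter, 0.54. Nfyb, a subunit of the factor that binds the Y box, had -0.91 (SE 0.390) and overlapped. Constitutive proteasome counterparts were represented by 2 of 3 genes, both lower, with 0 called at either threshold.

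In whole liver, fewer cells of a type and less RNA per cell cannot be told apart. The tissue label was borne out by its markers, with Alb at 16.14 and 16.15 in the 2 groups and all 8 hepatocyte markers tested. Summed intensities below are of the deposited linear values before quantile normalization, so differences in scaling between arrays enter them. Kupffer cell and macrophage markers, cells that carry class II, were lower for 9 of 9 measured genes (median -0.38), at a summed intensity of 11452 to 14491 in the probiotic and 14064 to 19243 in the high-fat samples. High-fat sample 2, the highest for 8 of 11 class II probe sets, also led for Cd68, Cd163, Clec4f, Csf1r, C1qa, C1qb and C1qc. It did not lead for Adgre1 or Aif1. The part of these cells in the class II values was not tested. B cell and dendritic cell markers were dim, with 3 of 7 past the signal filter, 3 lower and 4 higher, and summed 1051 to 1099 and 1052 to 1143. T and NK cell markers were lower for 6 and higher for 5 of 11 (summed 719.4 to 1204 and 966.1 to 1199). Endothelial markers were lower for 2 and higher for 4 of 6 (5153 to 9295 and 5880 to 6888). Hepatocyte markers summed 355402 to 398550 and 307992 to 620662. Of these markers 0 were listed at 0 in any sample.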

How the data were processed

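Total RNA was extracted with Trizol and biotin-labelled cRNA made from 8 ug of it, per the labels' protocols. The authors deposited 1 linear intensity per probe set and array; the labels name neither software nor settings for this step. The trimmed mean was 500.3 on every array, and the median intensity ran from 90.4 to 147.2. Array medians of log2(intensity + 16) differed by 0.617, above the limit of 0.2, so the log2 values were quantile normalized, which removes differences in overall distribution. Gene names came from the platform annotation, and 28 of 29 member genes matched RefSeq (GRCr8), with 0 symbols changed. It gave a single symbol for 20826 probe sets, more than 1 for 436, which stay without a gene name, and no entry used here for 9780. Control probe sets (57) and those under the 40th percentile of mean signal were not tested.

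Groups came from the titles. Fits used limma 3.58.1 in R 4.3.3 (lmFit, eBayes with trend, two-sided, Benjamini-Hochberg over 18625 probe sets), checked on simulated data. Arrays give no counting error; their number limits the precision. Members and lists were chosen with earlier results of these data known. Named were all class Ia and processing probe sets and, in classes Ib and II, up to 3 per direction without overlap and the 2 of largest spread. Class Ib includes every RT1 symbol outside classes Ia and II. Alternatives covered normalization, pseudocount (1, 64), filter, variance model, array weights, plain t statistics, the gap of Actb as covariate, the replicate block, the brightest probe set per gene and samples left out. Figures were drawn with matplotlib 3.10.9. The X box core, enhancer A and interferon element were shortened to 9 letters after longer spellings had been searched, which raised their shares among all promoters.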

Additional observations from a re-analysis of the deposited data

How the results depend on the processing

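The count of 4 called probe sets became 1 with plain t statistics and ran from 3 to 12 with 1 sample left out, with 12 when probiotic sample 1 was absent and 9 when high-fat sample 1 was. The class Ia median of -0.91 was 0.15 with the gap of Actb as covariate, -0.16 without both sample 2 arrays and -1.72 (high-fat sample 1 absent) to -0.35 (high-fat sample 2 absent) with 1 sample left out. The class Ib median of -0.58 was -0.79 without both sample 2 arrays. With 1 sample left out it ran from -0.63 to -0.35, the latter without probiotic sample 3. The class II median of -0.41 was -0.030 with the covariate, -0.76 by the brightest probe set of each gene and -0.56 to -0.27 with 1 sample left out, the latter without high-fat sample 2. The processing median of -0.33 was -0.13 with the covariate, -0.16 without both sample 2 arrays and -0.41 to -0.17 with 1 sample left out, with probiotic sample 2 absent for the latter and -0.19 with high-fat sample 2 absent. Without both sample 2 arrays the median within-group SD fell from 0.55 to 0.26 in class Ib and from 0.54 to 0.28 in class II. The cause was not tested. With arrays only median-centred, or not normalized, all 4 class medians were below 0 and moved by less than the spread between samples. The other 113 values of these results stayed within the spread or within 1.5 times. For named members 356 values did so and 21 moved. Same-numbered samples correlated at 0.14, 0.027 and 0.077 in their deviations, not all above 0.1, so the numbers were not taken as pairs, although 5 of 6 samples correlated best with their own number. The replicate block called 4 probe sets. Each number holds 1 probiotic and 1 high-fat sample, so this block cannot move a difference. The class medians of -0.91, -0.58, -0.41 and -0.33 with it were fixed in advance and say nothing of pairing. Such fixed values are among the 113 and the 356 that did not move.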
